A study of Rattus norvegicus with 32 samples.

Results

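The comparison described here is the addition of a decellularized skeletal muscle scaffold to a minced muscle graft, read as DSM+MM minus MM in rat muscle 14 days post injury (DPI). The deposited table holds 18281 RefSeq transcript rows, and 10851 of them had an average level of at least 0 on the log2 scale of CPM (counts scaled to library size), which is an average of at least 1 CPM. The difference was tested for 10848 of these, since 3 had no standard error (SE), and 10296 of the tested rows carried a gene symbol, for 10238 genes. Volumetric muscle loss (VML) was made in the left tibialis anterior of rats (Sprague Dawley in the study's methods, strain HSD in the labels) with an 8 mm biopsy punch to a depth of 3 mm. In MM14 the defect was filled with a paste of autologous muscle minced from the rat's own biopsy, and in DSM+MM14 the same kind of paste was applied to a scaffold of decellularized tibialis anterior from cadaveric rats. MM14 and DSM+MM14 have 3 libraries each, and the other groups used here are VML14 (no repair), DSM14 (scaffold without graft), MM3 and DSM+MM3 (both at 3 DPI), with 3 libraries each, and uninjured contralateral muscle with 4 libraries at each day. The graft is thus common to both groups compared, and the scaffold comes from other animals and carries no living cells. All rats were given buprenorphine and had access to Rimadyl after surgery.

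Minced muscle carries satellite cells, fibre fragments and their basal lamina into a defect that would otherwise fill with scar. A decellularized scaffold supplies matrix without living cells, and it is known to draw macrophages, which engulf and degrade it and release factors that act on fibroblasts, vessels and myogenic cells. Macrophages depend on the receptor Csf1r and its ligand Csf1, digest matrix in lysosomes, and in contact with material that they cannot engulf may fuse into multinucleate cells that resemble osteoclasts. The tissue measured here was a bulk piece from the middle of the muscle that spans the border of the defect, so fewer cells of a type and less RNA per cell cannot be told apart, nor can more cells and more RNA per cell.

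The deposited values are log2 fold changes that set each injured group against the uninjured muscles of its day, with an F score and a p-value. No value of a single library was analysed here, so the spread between rats enters only through the SE of each fold change, and overlap of the groups library by library is not given. The uninjured level cancels when MM14 is subtracted from DSM+MM14. The SE of the difference was taken from the F scores less a fixed share, set by library numbers, for the uninjured libraries. Every difference below is on the log2 scale, is DSM+MM14 minus MM14 unless another pair is named, and rests on 3 libraries a group. The spread behind each SE was shared over all 32 libraries, so the intervals do not give the spread of the 6 compared libraries alone. A gene reported as averaging under 1 CPM was not tested, and this is a statement on its row in the table and not on its expression. Of 105 listed genes with an untested row, 21 were at the lowest value of the table, among them the muscle and lysosomal genes Tpm1, Tnnt3 and Psap. The collagen gene Col1a2 also averaged under 1 CPM, beside an abundant Col1a1. Ccl20 and Csf3, counted in the 105, averaged 1.04 and 0.45 on the log2 CPM scale and were untested all the same.

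No transcript passed the threshold of an adjusted p under 0.05 for DSM+MM14 minus MM14 (0 of 10848, 0.0%, in a two-sided test of the derived difference with Benjamini-Hochberg adjustment). The smallest adjusted p was 0.209, and 0 passed under each of 9 other settings of the variance, level minimum, degrees of freedom and call. Settings of the call only added a fold filter to a set of 0, so they could return nothing else. Under the settings where it was recomputed, the smallest adjusted p ran from 0.124 to 0.824. At an unadjusted p under 0.05, 1380 transcripts (12.7%) were higher with the scaffold and 152 (1.4%) were lower. The estimates were lopsided in size as well: 1432 lay above 1 and 56 below -1, and 425 lay above 2 and 4 below -2, with a median of -0.01 over all transcripts and a median SE of 0.31. Abundant transcripts were shifted the other way, and the 1560 transcripts averaging at least 100 CPM had a median of -0.30. When the differences were centred on that median, a setting chosen after seeing the data, 1375 transcripts passed an adjusted p under 0.05, with 3389 higher and 8 lower at an unadjusted p under 0.05. The count of 0 thus holds for the authors' scaling and not for one that takes the abundant transcripts as level, and values relative to that scaling are 0.30 larger than those printed below.

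**Figure D1:**
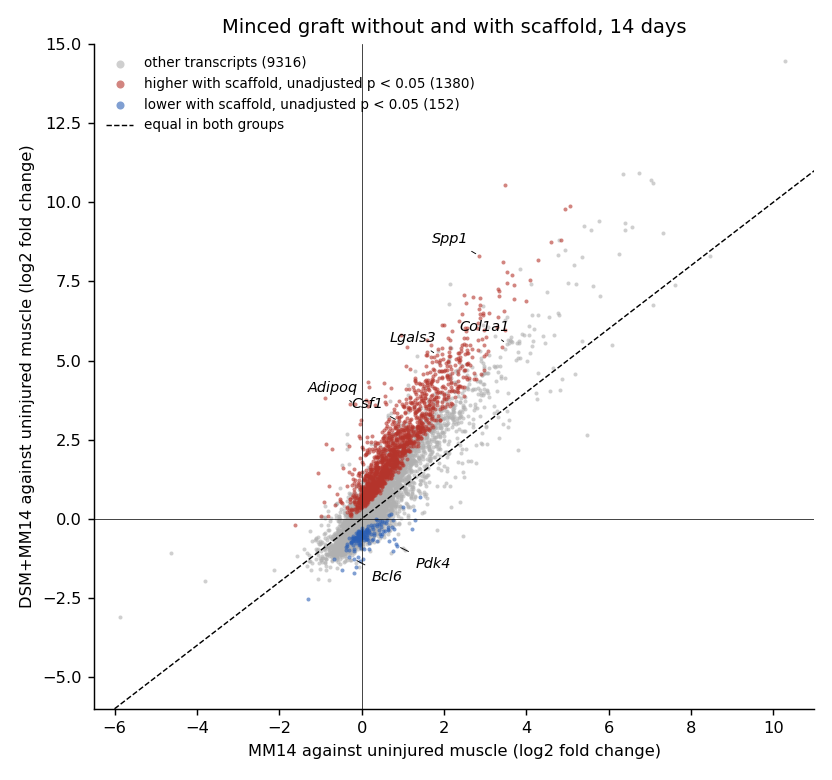
Log2 fold change against uninjured muscle of MM14 (x axis) and DSM+MM14 (y axis) for each of the 10848 transcripts tested, with the dashed line where both are equal. The 1380 transcripts higher with the scaffold at an unadjusted p under 0.05 (red) lie mostly above 0 on both axes, and the 152 lower (blue) cluster near 0 on the x axis.

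The 1380 transcripts were chosen on the values of both groups, so their levels are a description. Their median log2 fold change against uninjured muscle was 0.72 in MM14 and 2.09 in DSM+MM14, and the medians at 3 DPI were 2.16 in MM3 and 2.08 in DSM+MM3. The 152 lower transcripts had medians of 0.03 in MM14 and -0.54 in DSM+MM14. In the authors' own tests against uninjured muscle, 2409 of the tested transcripts (22.2%) rose and 324 (2.99%) fell in DSM+MM14 at an adjusted p under 0.05, whereas 2 (0.0184%) rose in MM14. The counts of these tests differ between the groups although the direct difference passed for no transcript.

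**Figure D2:**
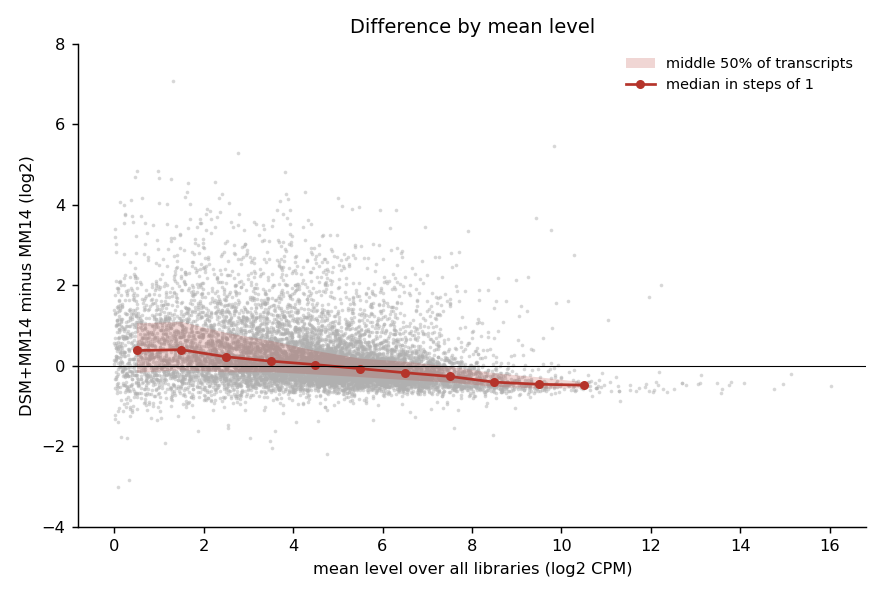
Difference DSM+MM14 minus MM14 (y axis, log2) against the mean level over all libraries (x axis, log2 CPM) for each transcript. The median, drawn in steps of 1 log2 CPM, goes from above 0 among transcripts of low level to below 0 among abundant ones.

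The median difference was 0.31 for the 2767 transcripts averaging 0 to 3 on the log2 CPM scale, 0.01 for the 5576 between 3 and 6, and -0.24 for the 2505 at 6 or more. Transcripts of contraction and energy metabolism are among the most abundant in muscle, and their lists are described below. The share of transcripts higher at an unadjusted p under 0.05 was 13.8%, 14.1% and 8.42% in these classes.

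Genes of macrophages and their receptors had the highest medians of the lists described below, and sequences of some of their promoters are given first. PU.1, a transcription factor of macrophages and other myeloid cells, binds a core of letters GAGGAA, which was looked for on both strands in the 250 bases before each gene's start in RefSeq (rat build GRCr8). It was held by 23.2% of all promoters listed there. Among the Trem and toll-like receptor genes described below, 16 of 18 were matched and 11 of them (68.8%) held it, as did 4 of 8 matched class II antigen presentation genes. It was held by 3 of 29 matched respiratory chain genes (10.3%). Other metabolic lists were near the share of all promoters: citric acid cycle 23.1%, fatty acid oxidation 21.4% and glycolysis 23.1%. Neutrophil and mast cell lists, with 0 genes higher at an unadjusted p under 0.05, held it in 2 of 5 matched genes each. Tendon and cartilage genes held it in 3 of 8 matched (37.5%) and B cell genes in 1 of 2, against 2 of 12 myogenic regulators and 0 of 4 of the study's nerve guidance genes. Over the 1380 higher transcripts fewer than 80% of genes were matched, so the share among them was not read. The macrophage marker (66.7% matched) and lysosome (61.1%) lists were not read for the same reason. Promoters of 3 macrophage and antigen presentation genes that hold the letters are shown to place them, with each GAGGAA or its complement in capitals, while the windows of Spp1, Tlr5, Cx3cr1, RT1-Ba, Lipa and Cd300e, also described below, held none. They are those of the growth factor receptor Csf1r (chr18:56834129-56834378, plus strand), of the lipopolysaccharide co-receptor Cd14 (chr18:28611159-28611408, minus strand) and of the antigen-processing protease Ctss (chr2:185775146-185775395, plus strand).
Csf1r: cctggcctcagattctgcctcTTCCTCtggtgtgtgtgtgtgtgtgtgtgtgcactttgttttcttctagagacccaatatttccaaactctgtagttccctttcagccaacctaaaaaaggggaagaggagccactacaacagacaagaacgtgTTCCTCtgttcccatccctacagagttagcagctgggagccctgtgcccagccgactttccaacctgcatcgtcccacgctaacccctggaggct
Cd14: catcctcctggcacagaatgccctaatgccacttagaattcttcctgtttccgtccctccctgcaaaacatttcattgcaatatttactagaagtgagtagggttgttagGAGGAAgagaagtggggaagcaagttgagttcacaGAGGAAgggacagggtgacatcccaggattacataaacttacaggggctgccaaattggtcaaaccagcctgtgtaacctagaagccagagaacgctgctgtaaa
Ctss: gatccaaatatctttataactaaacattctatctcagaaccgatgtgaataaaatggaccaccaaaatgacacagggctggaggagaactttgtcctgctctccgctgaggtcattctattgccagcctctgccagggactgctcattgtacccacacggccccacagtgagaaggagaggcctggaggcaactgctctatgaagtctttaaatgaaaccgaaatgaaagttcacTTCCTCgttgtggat
Csf1r held 2 matches, Cd14 held 2 and Ctss held 1. A match of letters is a description and does not show that the factor binds there.

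Macrophage markers were estimated higher with the scaffold for 12 of 12 measured genes, 11 of them at an unadjusted p under 0.05, with a median of 2.83 and a range from 1.53 to 3.94. Csf1r, the receptor that macrophages need to survive, was 1.78 above uninjured muscle in MM14 and 4.58 in DSM+MM14, a difference of 2.80 (SE 0.74, 95% interval 1.29 to 4.32). Its ligand Csf1 stood at 0.90 and 3.09, a difference of 2.19 (SE 0.51, interval 1.14 to 3.24). For Csf1 the unadjusted p was 0.00021 and the adjusted p was 0.209 in the test across all transcripts. Galectin-3 (Lgals3), a lectin of activated macrophages, differed by 3.36 (SE 0.84), from 1.82 in MM14 to 5.18 in DSM+MM14. The integrin subunit Itgb2, which pairs with others in leukocyte adhesion and in the uptake of complement-coated particles, differed by 3.88 (SE 1.09). All 12 markers rose against uninjured muscle in DSM+MM14 at an adjusted p under 0.05, beside 22.2% of all transcripts. In MM14 0 of them did, beside 0.0184% of all transcripts, so that count is not particular to this list. Marco, the remaining gene of the list, averaged under 1 CPM.

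Genes linked to multinucleate macrophages and osteoclasts had the highest median of the 45 lists, 3.12 over 10 measured genes, 6 of them higher at an unadjusted p under 0.05. Osteopontin (Spp1), a secreted matrix protein of macrophages and bone cells, was 2.85 above uninjured muscle in MM14 and 8.32 in DSM+MM14. That difference of 5.47 (interval 2.39 to 8.55) is 44.3-fold on a linear scale, with an interval that spans a wide range of folds. Cd9, a tetraspanin that restrains macrophage fusion in mice, differed by 1.62 (SE 0.44). Nfatc1, named here after its value was seen, was the only gene of the list below 0, at -0.18 (SE 0.24). Others were uncertain and are also named after their values were seen: Oscar at 1.35 (SE 1.28), Atp6v0d2 at 4.55 (SE 2.56) and the elastase Mmp12 of macrophages at 4.17 (SE 2.67). Acp5 and Calcr averaged under 1 CPM and were not tested, and Dcstamp and Ocstamp had no matched row.

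Fc receptors and the kinases that act in phagocytosis followed the macrophage markers, with 16 of 16 measured genes above 0, 14 of them higher at an unadjusted p under 0.05, and a median of 2.79. Fcer1g, the signalling chain shared by several Fc receptors, differed by 2.71 (SE 0.81), and Plcg2, a phospholipase downstream of it, by 1.94 (SE 0.58). Fc receptor genes resemble one another, so reads may be split between them. Among Trem and toll-like receptors with their adaptors, 17 of 18 were above 0 and 13 were higher at an unadjusted p under 0.05, with a median of 2.27. The flagellin receptor Tlr5 differed by 2.81 (SE 0.83), Cd14 by 2.62 (SE 0.80) and the adaptor Tyrobp by 2.65 (SE 0.85). Tlr3, a receptor for double-stranded RNA, was the only gene of this list not above 0 and is named here after its value was seen.

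Lysosomal genes were higher by less but with small errors. Of 18 measured, 17 were above 0 and 12 were higher at an unadjusted p under 0.05, with a median of 0.91. Lysosomal acid lipase (Lipa) was 0.23 above uninjured muscle in MM14 and 1.72 in DSM+MM14, a difference of 1.48 (SE 0.35, interval 0.76 to 2.21). Gm2a, the activator protein for ganglioside breakdown, differed by 2.84 (SE 0.70), and the cathepsins Ctsz and Ctsb, which cleave proteins in lysosomes, by 2.03 (SE 0.55) and 1.61 (SE 0.50). Lamp1 and Ctsd, also lysosomal and named after their values were seen, were at -0.07 (SE 0.20) and 0.08 (SE 0.28).

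Complement genes were above 0 for 18 of 18 measured, with 16 higher at an unadjusted p under 0.05 and a median of 2.36. C4b, a component of the classical pathway, was 0.71 above uninjured muscle in MM14 and 4.15 in DSM+MM14, a difference of 3.44 (SE 0.93, interval 1.52 to 5.36). Its near-identical copy C4a could have taken some of its reads. The protease C1r, the most abundant of the list, differed by 1.36 (SE 0.54). Factor D (Cfd), a protease of the alternative pathway that adipocytes also make, differed by 2.52 (SE 0.73).

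Class II antigen presentation was higher for 9 of 9 measured genes by estimate, 6 of them at an unadjusted p under 0.05, with a median of 2.21. The invariant chain Cd74, which guards the class II groove until peptides are loaded, differed by 2.15 (SE 0.73), the protease Ctss, which trims that chain, by 2.87 (SE 0.91), and the class II chain RT1-Ba by 2.25 (SE 0.72). The RT1 genes are a multigene family and their reads may be shared. Lymphocytes had fewer measurable genes: 7 of 21 listed T cell and cytotoxic genes averaged at least 1 CPM, and the defining chains Cd3d, Cd3e and Cd3g did not. Cd4, which macrophages of rats also express, differed by 2.69 (SE 0.81), the kinase Lck of T cells by 1.78 (SE 0.84), and Foxp3, the factor of regulatory T cells, by 0.23 (SE 0.52). Sdc1 and Cd22, the measured genes of the B cell and plasma cell list, differed by 2.47 (SE 0.76) and 2.08 (SE 0.90), while Cd79b averaged under 1 CPM.

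Neutrophil genes lay on both sides of 0. Of 6 measured, 0 passed an unadjusted p under 0.05, and their median was -1.04, or 0.13 over those averaging at least 10 CPM. S100a9 was 2.17 above uninjured muscle in MM14 and 0.38 in DSM+MM14, a difference of -1.79 with an SE of 1.20, while Csf3r differed by 0.06 (SE 0.90). The neutrophil proteins Elane, Ltf and Camp averaged under 1 CPM. Mast cell and eosinophil genes had a median of 0.32 over 5 genes, with 0 of 5 past an unadjusted p under 0.05.

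**Figure D3:**
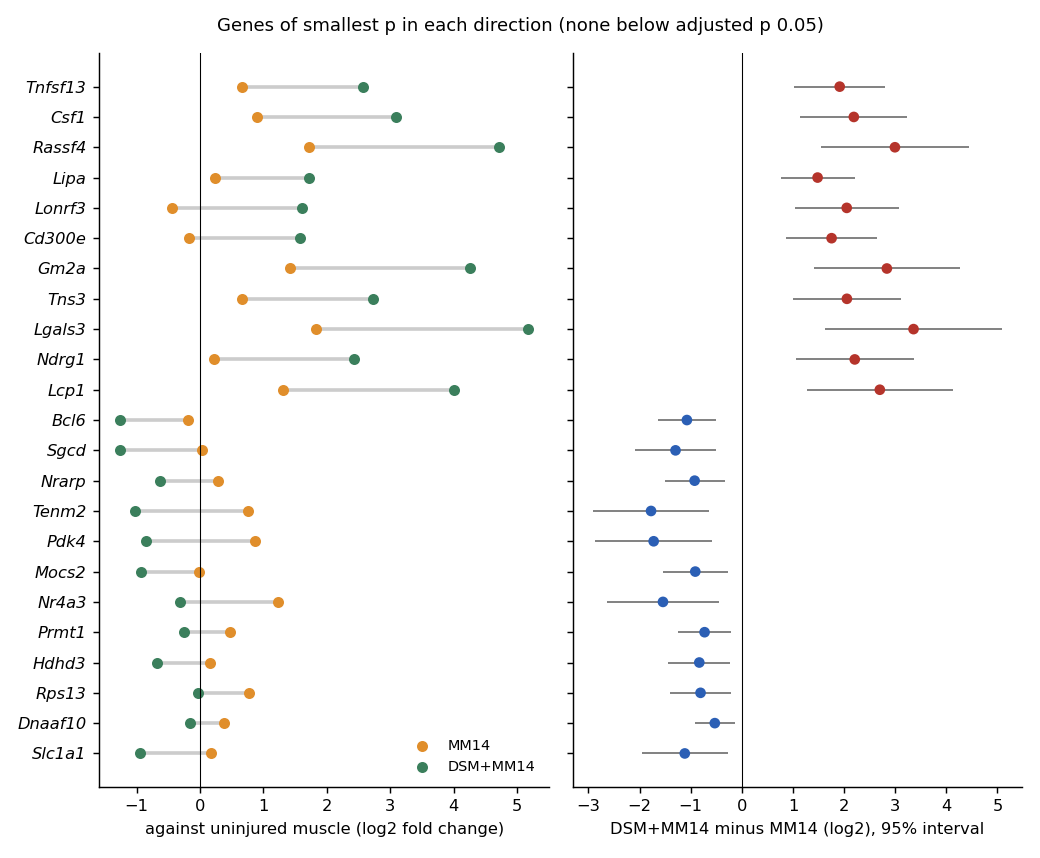
Genes of smallest p in each direction, 11 higher and 12 lower, with the log2 fold change against uninjured muscle in MM14 and in DSM+MM14 (left) and the difference with its 95% interval (right, log2). Intervals exclude 0 one gene at a time, and none of them passed an adjusted p under 0.05.

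Of these genes on the higher side, Csf1, Lgals3 and Lipa were members of the lists and Gm2a is described above. Tnfsf13, the ligand APRIL that myeloid cells make for B and plasma cells, had the smallest (0.000148), at 0.67 above uninjured muscle in MM14 and 2.58 in DSM+MM14, a difference of 1.91 (SE 0.43, interval 1.03 to 2.80). Others were Rassf4, a Ras association domain protein (2.99, SE 0.71), the myeloid receptor Cd300e (1.76, SE 0.43) and the actin bundler of leukocytes Lcp1 (2.70, SE 0.70). Tns3, a focal adhesion protein, differed by 2.06 (SE 0.51), the stress-responsive gene Ndrg1 by 2.21 (SE 0.56) and the ring finger gene Lonrf3 by 2.05 (SE 0.49).

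In the lower direction the differences were smaller. Bcl6, a transcriptional repressor, was at -0.19 in MM14 and -1.27 in DSM+MM14, a difference of -1.07 (SE 0.27, interval -1.64 to -0.51). Sgcd, a sarcoglycan that links the fibre's cytoskeleton to its basal lamina, was at 0.03 and -1.26, a difference of -1.30 (SE 0.39). Pdk4, the kinase that holds glucose carbon out of the citric acid cycle, was above uninjured muscle in MM14 (0.87) and below it in DSM+MM14 (-0.86), a difference of -1.73 (SE 0.55). The Notch pathway inhibitor Nrarp (-0.92, SE 0.29), the adhesion protein Tenm2 (-1.78, SE 0.55) and the immediate early nuclear receptor Nr4a3 (-1.54, SE 0.53) followed. The others were Mocs2, Prmt1, Hdhd3, Rps13, Dnaaf10 and Slc1a1, with differences from -1.12 to -0.53 and SEs from 0.19 to 0.41. Rps13 averaged a low 1.15 on the log2 CPM scale for a ribosomal protein gene, and such genes have many processed copies that can share their reads.

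Matrix genes were high in both groups and higher by estimate with the scaffold. The 13 measured structural matrix genes were all above 0, with 6 higher at an unadjusted p under 0.05 and a median of 1.65. All 13 rose against uninjured muscle in DSM+MM14 at an adjusted p under 0.05, beside 22.2% of all transcripts. Fibrillin 1 (Fbn1), a microfibril protein, differed by 1.85 (SE 0.60) and fibronectin (Fn1) by 2.76 (SE 0.99), from 2.92 in MM14 to 5.68 in DSM+MM14. The fibrillar collagens were less certain: Col3a1 differed by 1.71 (SE 0.78) and Col1a1 by 2.01 (SE 1.01, interval -0.06 to 4.08). Collagen processing genes had a median of 0.99 with 3 of 14 higher at an unadjusted p under 0.05, beside 12.7% of all transcripts. The smallest p values among them were those of the lysyl hydroxylase Plod1 (0.66, SE 0.25) and the collagen chaperone Fkbp10 (1.80, SE 0.74). Of the small proteoglycans, which space and organise collagen fibrils, all 6 measured were above 0 and 2 were higher at an unadjusted p under 0.05, decorin (Dcn, 1.23, SE 0.43) and lumican (Lum, 2.19, SE 0.87).

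Enzymes that degrade matrix were also higher by estimate. Of 13 measured metalloproteinases and inhibitors, 11 were above 0 and 9 were higher at an unadjusted p under 0.05, with a median of 1.91. The membrane-bound collagenase Mmp14 was 2.98 above uninjured muscle in MM14 and 5.48 in DSM+MM14, a difference of 2.50 (SE 0.93). Its substrate Mmp2, a gelatinase, differed by 1.88 (SE 0.75), and Timp2, the inhibitor that takes part in that activation, by 1.61 (SE 0.59). Mmp8, a collagenase of neutrophils, was on the other side, at 2.45 in MM14 and -0.55 in DSM+MM14 with an SE of the difference of 1.90.

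Fibroblast markers were above 0 for 12 of 12 measured, 6 of them higher at an unadjusted p under 0.05, with a median of 0.96. Pi16, a marker of adventitial fibroblasts, differed by 2.07 (SE 0.62) and the receptor Pdgfrb by 0.82 (SE 0.32). Tendon and cartilage genes had a median of 1.76 with 2 of 10 higher at an unadjusted p under 0.05, beside 12.7% of all transcripts. Those 2 were the lubricant Prg4 (1.28, SE 0.43) and the matrix protein Comp (3.53, SE 1.35), while Col2a1 and Col9a1 averaged under 1 CPM. For the TGF-beta pathway, which drives matrix synthesis in fibroblasts, the ligand Tgfb1 differed by 1.18 (SE 0.56) and the receptors Tgfbr2 and Tgfbr1 by 1.21 (SE 0.36) and 1.14 (SE 0.43), while the ligands Tgfb2, named after its value was seen, and Tgfb3 were at -0.07 (SE 0.39) and 0.39 (SE 0.26). Over the whole list of 25 growth factors and receptors 4 were higher at an unadjusted p under 0.05, beside 12.7% of all transcripts, with a median of 0.42. Fgf1 and Fgf2, growth factors of myoblasts and vessels, were at -0.68 (SE 0.70) and 0.17 (SE 0.54).

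Chemokine and cytokine genes varied more among themselves. Of 23 measured chemokines 19 were above 0 and 9 were higher at an unadjusted p under 0.05, with a median of 1.77. Cxcl16, a scavenger receptor and ligand of macrophages, differed by 2.29 (SE 0.72) and Ccl9, a chemokine of myeloid cells in rodents, by 4.27 (SE 1.34), while the monocyte attractant Ccl2 differed by 1.22 (SE 0.85) and Cxcl14 by -0.22 (SE 0.32). Among receptors Cx3cr1, which marks tissue monocytes, differed by 3.30 (SE 1.06). Il18, a cytokine released by the inflammasome, differed by 2.65 (SE 1.05) and the alarmin Il33 by 1.09 (SE 0.39), whereas Il6 and Il1b were at -0.54 (SE 2.09) and -0.13 (SE 1.18), values too uncertain to place. The interleukin-10 receptor chains Il10ra (3.03, SE 1.11) and Il10rb (1.35, SE 0.44) lay above 0, while the kinase Jak1, which they share with many receptors, was at 0.02 (SE 0.15), and Il10 itself averaged under 1 CPM.

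**Figure D4:**
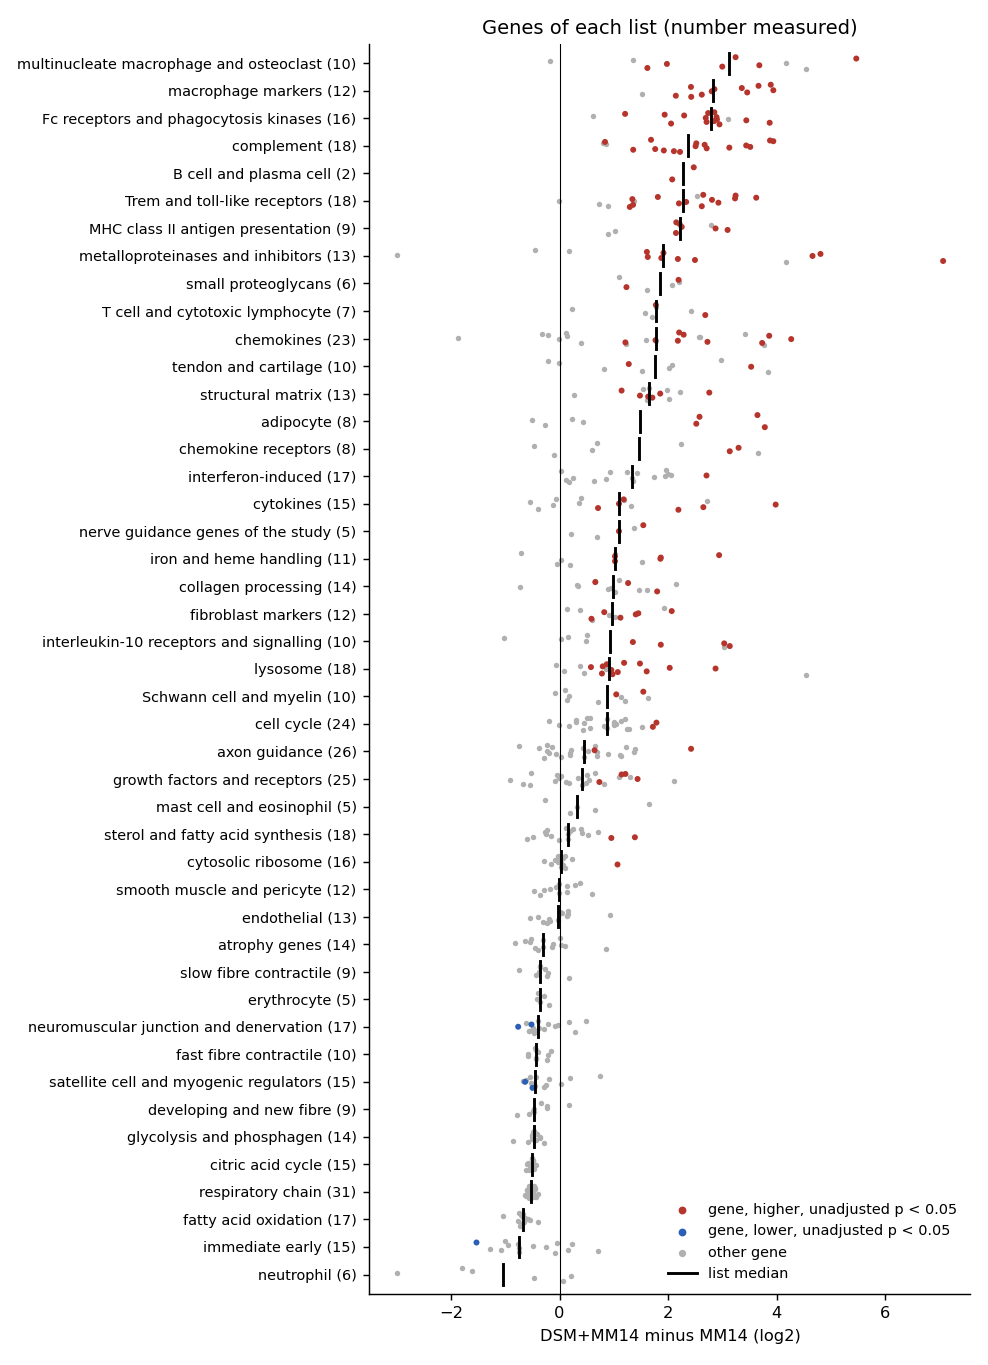
Difference DSM+MM14 minus MM14 (x axis, log2) of each measured gene in 45 gene lists, ordered by their medians (black bars), with the number of genes measured in brackets. Red and blue points are higher and lower at an unadjusted p under 0.05, and some genes stand in more than 1 list.

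Lists of muscle contraction and metabolism lay on the other side of 0, narrowly and with 0 genes past an unadjusted p under 0.05. The differences of 31 respiratory chain genes ran from -0.64 to -0.40 with a median of -0.53, and those of 15 citric acid cycle genes from -0.62 to -0.44 with a median of -0.52. Fatty acid oxidation had a median of -0.67 over 17 genes and glycolysis with phosphagen enzymes -0.47 over 14. In fast fibres, the myosin Myh4 was at -0.21 (SE 0.75) and the light chain Myl1 at -0.59 (SE 0.61), and the list's median was -0.44 over 10 genes, all below 0. Such differences are of the size of the shift of abundant transcripts: relative to the median of transcripts averaging at least 100 CPM, the respiratory chain median was -0.23 with 31 of 31 genes below that reference, and the fast fibre median was -0.14 with 3 of 10 genes above it. That reference was chosen after seeing the data and may itself hold genes of these lists, and a difference from it was not tested for either list. The creatine kinase Ckm, among the most abundant muscle transcripts, was at -0.58 (SE 0.65).

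Myogenic genes were lower by estimate. The 15 measured satellite cell and myogenic regulators had a median of -0.46, or -0.16 relative to the abundant transcripts, with 6 of 15 genes above that reference. Of the 15, 12 were below 0 and 2 were lower at an unadjusted p under 0.05, beside 1.4% of all transcripts. Those 2 were the cadherin Cdh15 of satellite cells (-0.50, SE 0.18) and the regulator Myf6 of mature fibres (-0.63, SE 0.27). The satellite cell factor Pax7 was at -0.19 (SE 0.35), Myf5 at -0.52 (SE 0.42), Myod1 at -0.67 (SE 0.36) and Myog at -0.62 (SE 0.56). Genes of developing fibres were above uninjured muscle in both groups, with medians of 2.07 in MM14 and 1.51 in DSM+MM14, and the embryonic myosin Myh3 differed by -0.46 (SE 0.46). Immediate early genes had a median of -0.74 over 15 genes, with Nr4a3 the 1 gene lower at an unadjusted p under 0.05, beside 1.4% of all transcripts.

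Nerve genes were mixed. Among 10 measured Schwann cell and myelin genes 9 were above 0 and 2 were higher at an unadjusted p under 0.05, beside 12.7% of all transcripts. Those 2 were the myelin protein Pmp22 (1.04, SE 0.34) and the calcium-binding protein S100b (1.54, SE 0.56). The Schwann cell factor Sox10, named after its value was seen, was at 0.10 (SE 0.72). Reln, a secreted guidance protein, was 1.19 above uninjured muscle in MM14 and 2.29 in DSM+MM14, a difference of 1.09 (SE 0.44, interval 0.19 to 2.00), and the Slit receptor Robo1 differed by 1.36 (SE 0.79, interval -0.27 to 2.99). The study had singled out Reln, Robo1, S100b and Ngef, among others, on these libraries, so their common side of 0 is not independent evidence. Over 26 axon guidance genes the median was 0.44 (0.20 at 10 CPM or more), and the 2 genes higher at an unadjusted p under 0.05 are a smaller share than the 12.7% of all transcripts: Sema4a (2.42, SE 0.72), which immune cells also express, and Sema3b (0.65, SE 0.29). Neuromuscular junction genes had a median of -0.41, or -0.11 relative to the abundant transcripts, with 7 of 17 genes above that reference. Dok7 (-0.76, SE 0.34) and Lrp4 (-0.52, SE 0.24), both parts of the pathway that clusters acetylcholine receptors, were lower at an unadjusted p under 0.05, beside 1.4% of all transcripts.

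Adipocyte genes divided sharply. Adiponectin (Adipoq), an adipocyte hormone, was at -0.17 in MM14 and 3.62 in DSM+MM14, a difference of 3.78 (SE 1.02, interval 1.69 to 5.87), and 4 of the 8 genes measured were higher at an unadjusted p under 0.05. The list's median was 1.48, but among genes averaging at least 10 CPM it was 0.23, and the abundant Car3, which muscle fibres also express, was at -0.27 (SE 0.63). Fatty acid synthase (Fasn) differed by 1.39 (SE 0.45), while the 18 sterol and fatty acid synthesis genes had a median of 0.16. Leptin (Lep) and Pparg averaged under 1 CPM.

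Vessel lists were close to 0. The 13 endothelial genes had a median of -0.04 and the 12 smooth muscle and pericyte genes -0.01, with 0 past an unadjusted p under 0.05 in either, and both medians turn positive relative to the abundant transcripts (0.26 and 0.29). Endothelial Cdh5 was at -0.24 (SE 0.18) and Acta2 at 0.60 (SE 0.40). Erythrocyte genes had a median of -0.35 over 5 genes, all below 0, and haemoglobin genes are near-identical copies. The cytosolic ribosome list had a median of 0.03, with Rpl3 the 1 of 16 higher at an unadjusted p under 0.05 (1.06, SE 0.43). Iron handling genes had a median of 1.02 over 11 genes, with 5 higher at an unadjusted p under 0.05, among them the ferritin light chain Ftl1 (1.86, SE 0.59) beside a ferritin heavy chain Fth1 at 0.02 (SE 0.29) and the phagosomal metal transporter Slc11a1 (2.94, SE 1.09).

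Proliferation and interferon genes leaned above 0, with smaller shares at an unadjusted p under 0.05 than the 12.7% of all transcripts. Of 24 cell cycle genes 22 were above 0 and 2 were higher at an unadjusted p under 0.05, the replication helicase subunit Mcm3 (1.79, SE 0.71) and the cyclin Ccnb1 (1.72, SE 0.79), with a median of 0.88 (0.51 at 10 CPM or more). All 17 interferon-induced genes were above 0 with a median of 1.33, and 1 of them, the antiviral GTPase Mx2 (2.69, SE 1.27), was higher at an unadjusted p under 0.05.

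The same scaffold was also compared without a graft. DSM14 minus VML14 shares no library with DSM+MM14 minus MM14 once the uninjured level cancels, although 1 fit gave the spread of both. It had 0 transcripts at an adjusted p under 0.05 (smallest 0.362), 644 higher (5.94%) and 853 lower (7.86%) at an unadjusted p under 0.05. Of the 1380 transcripts that were higher with a graft, 1289 (93.4%) were also above 0 without one, against 53.9% of all transcripts, and 349 (25.3%) were higher at an unadjusted p under 0.05. Across transcripts the r of the 2 differences was 0.75 over 10846 transcripts, which share libraries and normalisation and are not independent. Macrophage markers had a median of 2.41 without a graft, against 2.83 with it, and Spp1 differed by 5.35, against 5.47. Other lists had medians on opposite sides: neutrophil genes 0.21 without a graft against -1.04 with it, immediate early genes 0.29 against -0.74, neuromuscular junction genes 0.22 against -0.41, developing fibre genes 0.27 against -0.46 and the study's nerve guidance genes -0.37 against 1.09. Mast cell and eosinophil genes (-0.89 against 0.32) and cytosolic ribosome genes (-0.08 against 0.03) were also opposite. The neutrophil median with a graft was 0.13 among genes averaging at least 10 CPM, and 0 neutrophil genes passed an unadjusted p under 0.05 in either setting. Relative to the abundant transcripts, the medians with a graft were -0.11 for neuromuscular junction and -0.16 for developing fibre genes, and those without a graft were not centred. The group DSM14 was identified from a column header that does not give its day, as set out in the account of the processing.

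The difference between the 2 settings was tested as an interaction, and 0 transcripts passed an adjusted p under 0.05 (smallest 0.9995), with 114 (1.05%) higher and 68 (0.627%) lower with the graft at an unadjusted p under 0.05. The genes named here were chosen on the difference with the graft, so their pairs of values are a description with no test. Cd300e differed by 1.76 with the graft and -0.80 without it, Adipoq by 3.78 and 0.56, and Pdk4 by -1.73 and 0.61. Structural matrix genes had medians of 1.65 with the graft and 0.80 without, and small proteoglycans 1.84 and 0.50, and no gene of either list had an unadjusted p under 0.05 for the interaction on the higher side.

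**Figure D5:**
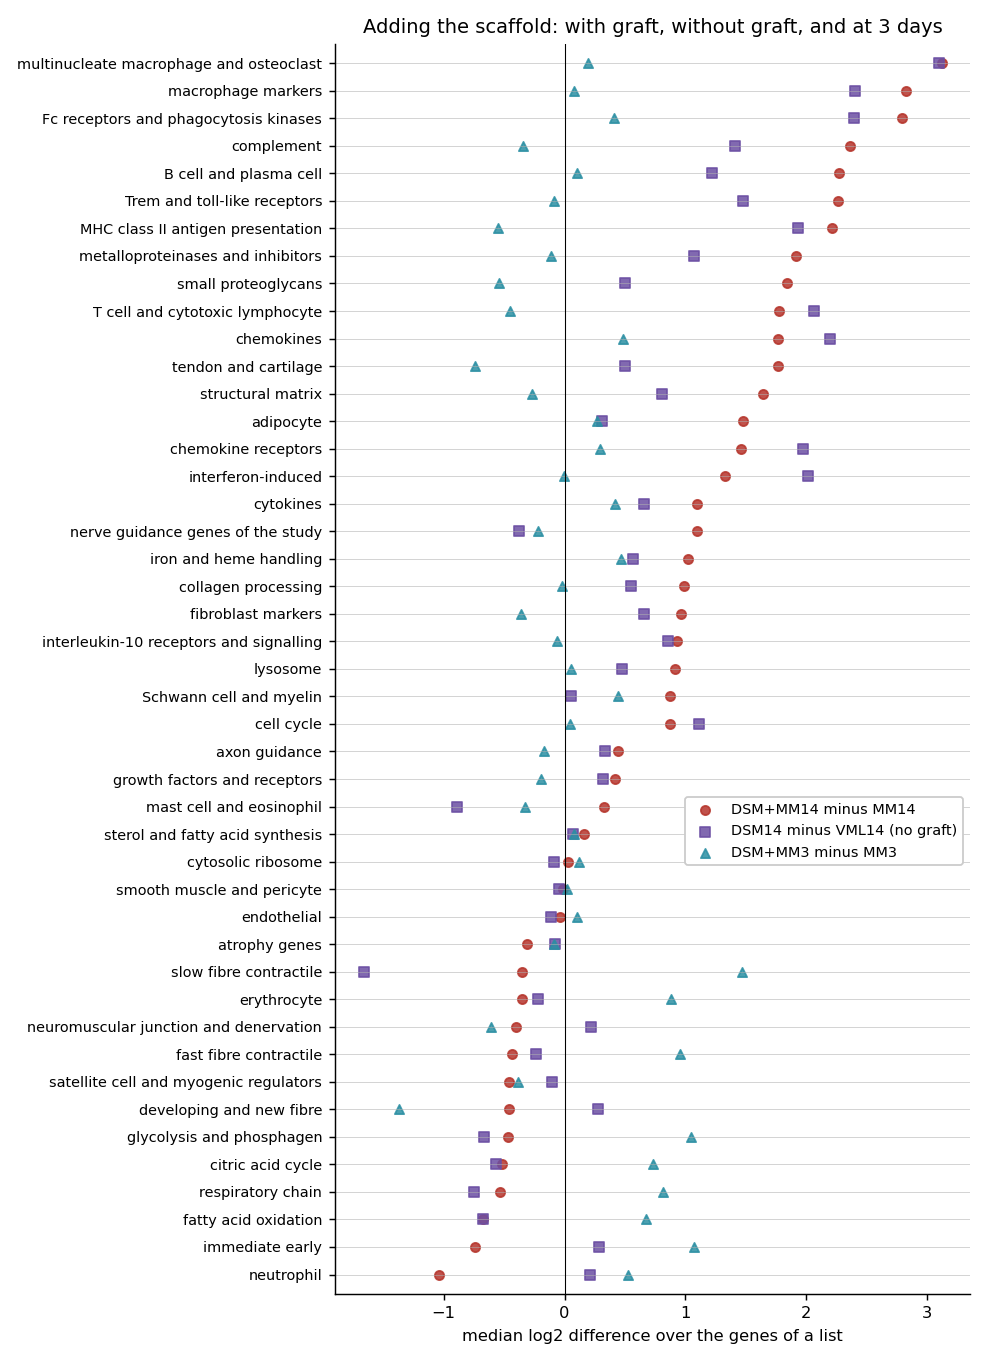
Median log2 difference over the genes of each list (x axis) when the scaffold was added to a graft at 14 DPI (circles), without a graft at 14 DPI (squares) and to a graft at 3 DPI (triangles). Macrophage, Fc receptor and complement lists lie far to the right at 14 DPI and between -0.34 and 0.41 at 3 DPI, and the respiratory chain, citric acid cycle, fatty acid oxidation and glycolysis lists lie left of 0 at 14 DPI and right of it at 3 DPI.

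At 3 DPI the same addition gave estimates that leaned less to one side. For DSM+MM3 minus MM3 the smallest adjusted p was 0.692, so 0 transcripts passed, with 287 higher (2.65%) and 192 lower (1.77%) at an unadjusted p under 0.05. Of the 1380 transcripts, 607 were above 0 and 773 below 0 at 3 DPI, against 5853 and 4994 of all, with a median of -0.05. Macrophage markers had a median of 0.08, complement genes -0.34 and class II genes -0.55. Metabolic lists lay above 0 at 3 DPI, with medians of 0.82 for the respiratory chain and 1.05 for glycolysis. For the change of the difference from 3 to 14 DPI the smallest adjusted p was 0.355, so 0 transcripts passed, with 779 (7.18%) higher and 626 (5.77%) lower at an unadjusted p under 0.05. Genes named here were chosen on their day 14 difference, which is part of that change, and their values are given with no test. C4b was at -1.24 at 3 DPI and 3.44 at 14 DPI, Adipoq at -1.08 and 3.78, Csf1r at -0.19 and 2.80, and Nr4a1, an immediate early gene, at 2.07 and -0.77.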

How the data were processed

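Total RNA from a piece of the tibialis anterior that spans the defect's border was sequenced on a BGISEQ platform. Alignment was by STAR to Rnor_6.0, featureCounts gave counts per RefSeq transcript, and the authors ran edgeR on each injured group against its uninjured muscles, with versions not given in the sources used here. As log2 values the authors deposited fold changes and average CPM. Their deposited score is an F statistic, and they deposited p-values with their Benjamini-Hochberg adjustment over 18281 rows. Of 48 columns, 32 were used, and each of the 8 comparisons fills 6. Depth per library is not given in it, and it holds only these comparisons, so the tests read here rest on the authors' own fold changes and F scores and not on counts. DSM3 and DSM14 were read from the columns headed MM4 and DSM, because DSM is the treatment without a header of its own and because comparisons of the same day share identical fold changes (109 to 188 rows for each of 12 pairs), which those of different days do not (0 rows for 16 pairs).

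The block variance was the squared log2 fold change over F. The variance of a difference was the sum of both, each less 0.429 of itself, the share of 4 uninjured libraries beside 3 injured ones (the methods give 3 per group, and 1/2 was an alternative). That share takes the log2 variance as equal in uninjured and injured libraries. For a gene whose uninjured libraries vary more, the SE of the difference is too large, and where they vary less it is too small. No share above 1/2 was run. For DSM+MM14 minus MM14 the smallest Benjamini-Hochberg adjusted p was 0.824 with no share, 0.209 with 0.429 and 0.124 with 1/2. Uninjured and injured muscles of 1 rat were treated as independent. Degrees of freedom, solved from F and p, were 16.0 to 26.4, and tests were two-sided with Benjamini-Hochberg adjustment over all tested rows. Their arithmetic was run on simulated data drawn with known variances and the same variance share. That run could not test the share, the SEs taken from F or the solved degrees of freedom. Samples were grouped by their labels, and p-values measure only the spread between these libraries.

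Rows were matched to symbols for 17359 of 18281. A gene with more than 1 row (54 symbols) was represented by its row of highest average level. The comparison and the 45 lists, in part taken from an earlier look at the table, were chosen with earlier results of these data known. Named genes were the 12 of smallest p in each direction (none passed), from each list the 2 of smallest p and the most abundant (all, for lists under 8 measured genes), and those the paper names, 172 in all, of which a few are not reported here. PU.1, AP-1, MEF2, E-box and NF-kB motifs were counted in promoters, with 1 start per gene, and only the PU.1 core is described. Scripts ran in Python 3.11.15 with matplotlib 3.10.9, pandas 2.3.3, scipy 1.17.1 and numpy 2.4.6. Alternatives of the variance share, its shared part, the level minimum, the degrees of freedom, the call and the block variance were run.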

Additional observations from a re-analysis of the deposited data

How the results depend on the processing

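For DSM+MM14 minus MM14, 0 transcripts passed an adjusted p under 0.05 under 9 other settings, and 0 also passed for the 4 other contrasts under theirs. Those of the 9 that only added a fold filter to the call could not have returned more than 0. Centred on transcripts averaging at least 100 CPM, a setting added after seeing the data that counts no error of the reference itself, 1375 passed, with 3389 higher and 8 lower at an unadjusted p under 0.05 in place of 1380 and 152. With no uninjured share taken out these counts were 508 and 15, and with a share of 1/2 the lower count was 240, while the other alternatives kept them within 1.5 times. Centring raised all 45 list medians by 0.30, and 2 changed sign (endothelial 0.26, smooth muscle and pericyte 0.29). Lists near 0 moved most in proportion: slow fibre went from -0.35 to -0.05, atrophy from -0.31 to -0.01 and cytosolic ribosome from 0.03 to 0.33. The respiratory chain median went from -0.53 to -0.23. At 10 CPM or more 2 turned (neutrophil 0.13, smooth muscle and pericyte 0.06) and 8 moved by over 1.5 times: adipocyte 0.23, axon guidance 0.20, chemokine receptors 0.69, interleukin-10 genes 0.51, cell cycle 0.51, cytokines 0.71, endothelial -0.11 and T cell genes 2.69. None of the 172 named genes passed under an alternative of the variance. No paired analysis was possible because the table holds no values of single libraries. For the same reason no replicate could be left out, and 1 library that stands apart would not be seen.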
